A study of Rattus norvegicus with 12 samples.

Results

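The 10 genes described here encode the ligands of transforming growth factor beta (TGF-β), their receptors and the proteins that store the ligands in the extracellular matrix. They were taken by symbol from a table of 22850 features, and comprised 3 ligands (Tgfb1, Tgfb2, Tgfb3), 3 receptors (Tgfbr1, Tgfbr2, Tgfbr3) and 4 latent TGF-β binding proteins (Ltbp1, Ltbp2, Ltbp3, Ltbp4). RNA was sequenced from primary atrial fibroblasts of newborn Sprague-Dawley rats aged 1 to 3 days. All cells received angiotensin II (AngII) at 1 μmol/L for 48 h, and the groups were AngII alone, AngII+HNG (10 μmol/L) and AngII+MOTS-c (5 μmol/L), with 4 libraries each. Both peptides were added before AngII. HNG is the Gly14 analogue of humanin, and humanin and MOTS-c are short peptides encoded in mitochondrial DNA. No group without AngII was analysed here, so each value is a level under AngII and the effect of AngII itself was not measured. The cells were enriched by their adhesion to plastic and were not sorted. The labels call the replicates biological but do not say whether they came from separate litters or cultures. Each p-value therefore sets a difference between groups against the spread between the libraries within those groups, whatever their origin.

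TGF-β is made as a precursor that is cut by a protease but stays bound to its own propeptide, which keeps it inactive. In most cells this latent complex is linked to a latent TGF-β binding protein and deposited on fibrillin and fibronectin fibres, until integrins, proteases or mechanical pull release the ligand. The free ligand is bound by the type II receptor (Tgfbr2), which phosphorylates the type I receptor (Tgfbr1), and the type I receptor then phosphorylates SMAD2 and SMAD3. The type III receptor (Tgfbr3, betaglycan) has no kinase activity and presents the ligand, above all the one encoded by Tgfb2. In cardiac fibroblasts this pathway is known for driving the change to contractile, matrix-producing myofibroblasts.

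The libraries held 27960586 to 38322354 counts, and the 10 genes took 0.282% to 0.315% of them. A floor of 3 counts corresponded to 0.0783 to 0.107 CPM (counts divided by the library total and scaled to a common size), far below the lowest value of any of the 10 genes (25 CPM, Tgfbr3). The fibroblast label was checked with 10 marker genes, all of which had counts in every library and whose FPKM, a read level divided by gene length and library total, summed to 12200 to 13800. Markers of other cells were also present. The summed FPKM of 10 macrophage markers was 64.6 to 79.8 with AngII, 66.1 to 77.9 with AngII+MOTS-c and 77.2 to 108 with AngII+HNG, and that of 8 endothelial markers was 19.2 to 21.9, 20.2 to 21.7 and 25.2 to 27.6. None of these markers was at 0 in all libraries of a group. With HNG, 3 of the 10 macrophage markers and 4 of the 8 endothelial markers were called higher than with AngII, and none lower, where 3.4% of all genes were higher and 2.58% lower, while with MOTS-c none was called. Those called were Cd68 (log2 fold change 0.69), Mrc1 (0.55) and Ptprc (0.37) among the macrophage markers, and Kdr (0.43), Tie1 (0.42), Tek (0.40) and Egfl7 (0.39) among the endothelial markers. Cdh5 (0.25, adjusted p = 0.0859, edgeR), Pecam1 (0.15), C1qa (0.10), C1qb (−0.05), C1qc (−0.43) and Adgre1 (−0.36) were not called. The 8 cardiomyocyte markers summed to 3730 to 3990 FPKM with AngII, 3680 to 4570 with AngII+HNG and 3360 to 4110 with AngII+MOTS-c. Of them 1, Tnni3 (log2 fold change 0.43, adjusted p = 0.0131, edgeR), was called higher with HNG. The 7 smooth muscle and pericyte markers summed to 252 to 286 FPKM with AngII and 232 to 259 with AngII+HNG, and 2 of them were called lower. With HNG, 1 of 5 epicardial and mesothelial markers, Upk1b (log2 fold change 0.81, adjusted p = 0.00776, edgeR), and 2 of the 10 fibroblast markers, Tcf21 (0.28, adjusted p = 0.00746) and Thy1 (0.17, adjusted p = 0.022), were also called higher. The part of these cells in the results below was not tested, and in bulk RNA fewer cells of a type cannot be told apart from less RNA per cell.

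Tgfb3 was the most abundant of the 10 genes in every treatment. With AngII its FPKM was 223 on average (192 to 263), and the order below it was Ltbp2 (114), Ltbp4 (103), Tgfb2 (54.6), Ltbp3 (51.3), Tgfbr2 (42.7), Tgfb1 (34.5), Ltbp1 (17.1), Tgfbr1 (14) and Tgfbr3 (5.87). Only the neighbours Tgfb2 and Ltbp3 had overlapping ranges in that order. The order of mean levels was the same with AngII+MOTS-c. With AngII+HNG, Tgfb3 again led with 183 FPKM, and Ltbp4 (106) was followed by Ltbp2 (99.4), whose ranges overlapped. There Tgfbr2 (53.8) stood above Ltbp3 (53.4), with overlapping ranges, and above Tgfb2 (42.5), with no overlap. Among 18385 genes with counts, the mean FPKM over all libraries placed Tgfb3 at percentile 98.5, Ltbp2 at 96.9, Ltbp4 at 96.7, and Tgfbr3 lowest at 57.6.

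**Figure D1:**
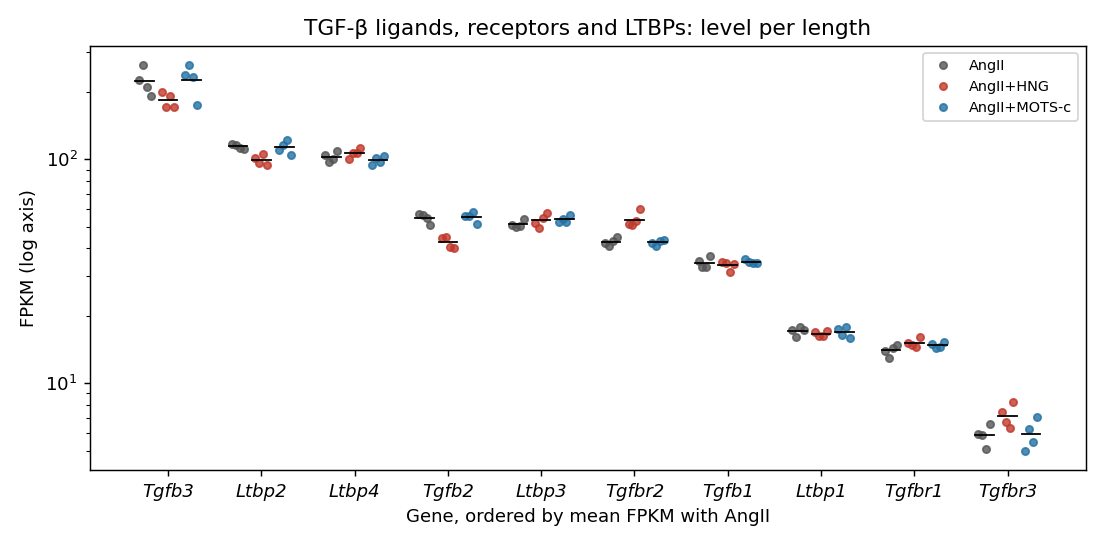
Level of each of the 10 genes in FPKM (log axis), by treatment; points are the 4 libraries of each treatment and bars are their means. Tgfb3 lies highest (mean 223 FPKM with AngII) and Tgfbr3 lowest (5.87 FPKM).

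Within the ligands, Tgfb3 made up 71.3% ± 2.5 (SD, n = 4) of the summed FPKM with AngII, Tgfb2 17.6% ± 1.1 and Tgfb1 11.2% ± 1.55. With AngII+HNG the shares were 70.6% ± 1.95, 16.4% ± 1.12 and 13% ± 0.961, and on this scale all 3 shares overlapped with those of AngII. By CPM divided by 1 length per gene, the share of Tgfb1 was 9.46% to 11.7% with AngII and 12% to 14.1% with AngII+HNG, which did not overlap. Among the receptors, Tgfbr2 made up 68.3% ± 0.485 with AngII and 70.7% ± 1.05 with AngII+HNG (n = 4 each), and these ranges, 67.8% to 68.9% against 69.5% to 72%, did not overlap. The summed ligand level was 279 to 352 FPKM with AngII and 246 to 278 FPKM with AngII+HNG, and these ranges did not overlap. Most of this sum is Tgfb3, whose gene length in the FPKM values differed between libraries, as described below. By CPM divided by 1 length per gene (in kb), the sums were 317 to 359 and 240 to 279. The summed receptor level was 59.7 to 66.4 FPKM with AngII and 72 to 84.1 FPKM with AngII+HNG, also with no overlap. The 4 latent TGF-β binding proteins summed to 280 to 292 FPKM and 268 to 283 FPKM, which overlapped.

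The comparison of AngII+HNG with AngII asks how HNG moves these genes in fibroblasts that already receive AngII. Of the 10 genes, Tgfb2, Tgfb3 and Ltbp2 fell, to 0.767, 0.751 and 0.867 of their level with AngII, Tgfbr2 rose 1.24-fold, and the other 6 did not pass the test (edgeR quasi-likelihood test, adjusted p below 0.05 over 14524 genes). This is 4 of 10, where 5.98% of all genes tested were called. In each direction it is 1 higher, where 3.4% of all genes were, and 3 lower, where 2.58% were. The same 4 genes were those whose groups did not overlap, against 13.6% of all genes. The median log2 fold change was −0.012 over the 10 genes and 0.0043 over all genes tested. Levels are given below as CPM after scaling by TMM, and each fold change is the edgeR estimate on the log2 scale.

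Tgfb2, the ligand that depends most on betaglycan, had 245, 251, 253 and 233 CPM in AngII replicates 1 to 4, and 202, 199, 179 and 171 CPM in AngII+HNG replicates 1 to 4. Every HNG library was below every AngII library. The log2 fold change was −0.38 (SE 0.054, 95% CI −0.5 to −0.266, adjusted p = 0.00148, edgeR). Tgfb3, the most abundant ligand here, had 786, 767, 712.5 and 665 CPM with AngII and 581, 576, 548 and 491 CPM with AngII+HNG, again with no overlap. Its log2 fold change was −0.41 (SE 0.0618, 95% CI −0.547 to −0.28, adjusted p = 0.0021, edgeR). In both genes replicate 4 was the lowest library of every treatment, and AngII+HNG replicate 4 was the lowest of all. Without AngII+HNG replicate 4 the log2 fold changes were −0.34 for Tgfb2 (adjusted p = 0.00313, edgeR) and −0.36 for Tgfb3 (adjusted p = 0.00396). Tgfb1, the ligand most often studied in fibrosis, had 50.8 to 56.8 CPM with AngII and 47.3 to 52.9 CPM with AngII+HNG. These ranges overlapped, and the log2 fold change was −0.06 (95% CI −0.169 to 0.0584, adjusted p = 0.624, edgeR). A fall of Tgfb1 as large as that of Tgfb2 lies outside this interval.

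**Figure D2:**
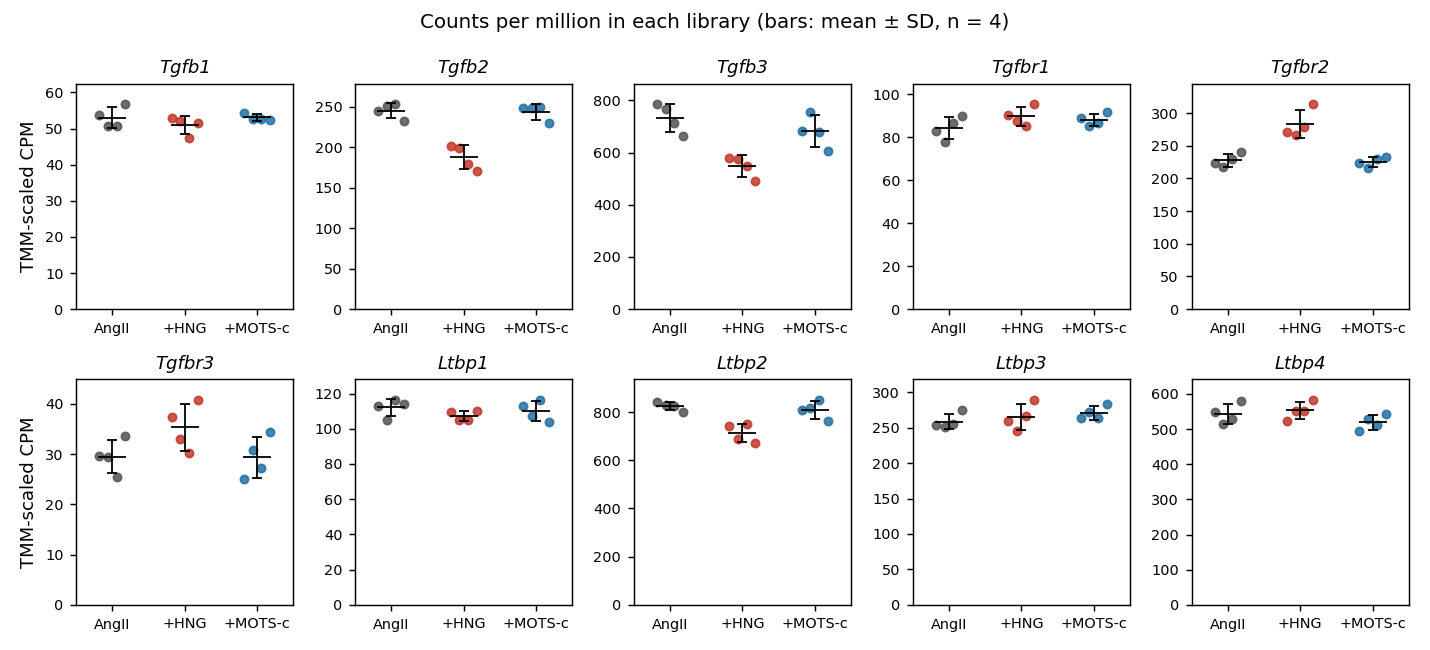
TMM-scaled CPM of each of the 10 genes in the 12 libraries, with a panel per gene; points are libraries and bars are mean ± SD (n = 4). The AngII+HNG points lie apart from the AngII points for Tgfb2, Tgfb3, Ltbp2 (lower) and Tgfbr2 (higher) and overlap them in the other 6 panels.

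Tgfbr2, the type II receptor that binds the ligand first, had 224, 218, 229 and 241 CPM with AngII and 272, 266, 279 and 314 CPM with AngII+HNG. Every HNG library was above every AngII library, and the log2 fold change was 0.31 (SE 0.053, 95% CI 0.198 to 0.428, adjusted p = 0.00448, edgeR). Replicate 4 was the highest library of every treatment. AngII+HNG replicate 4, the highest of all, also had the highest sums of macrophage (108 FPKM) and endothelial (27.6 FPKM) markers. With AngII and with AngII+MOTS-c, replicate 4 had the highest macrophage sum (79.8 and 77.9 FPKM). Its endothelial sum (20.8 and 20.2 FPKM) was not the highest there. Without AngII+HNG replicate 4 the log2 fold change of Tgfbr2 was 0.26 (adjusted p = 0.00672, edgeR). Tgfbr1, the type I receptor, had 77.8 to 89.7 CPM with AngII and 85.5 to 95.5 CPM with AngII+HNG, with a log2 fold change of 0.09 (95% CI −0.0181 to 0.202, adjusted p = 0.346, edgeR). Tgfbr3 had 29.6, 29.4, 25.5 and 33.6 CPM with AngII and 37.4, 33.1, 30.2 and 40.8 CPM with AngII+HNG. Its groups overlapped, and its log2 fold change of 0.26 (SE 0.0954, 95% CI 0.0555 to 0.469) had an unadjusted p of 0.0169 and an adjusted p of 0.139 (edgeR), so it was not called. In Tgfbr3 replicate 3 was the lowest of the AngII libraries and of the AngII+HNG libraries, and replicate 4 was the highest of both. Without AngII+HNG replicate 3 the log2 fold change of Tgfbr3 was 0.33 and passed (adjusted p = 0.044, edgeR).

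Of the latent TGF-β binding proteins, Ltbp2 differed. Ltbp2 is the member of this family that is known for binding fibrillin without carrying TGF-β. It had 841, 829, 827 and 799.9 CPM with AngII and 742, 686, 751 and 674 CPM with AngII+HNG. Here too replicate 4 was the lowest library of every treatment. The ranges did not overlap, and the log2 fold change was −0.21 (SE 0.0429, 95% CI −0.299 to −0.113, adjusted p = 0.0131, edgeR). Without AngII replicate 1 the log2 fold change of Ltbp2 was −0.20 and the call was lost (adjusted p = 0.0594, edgeR). Ltbp1, Ltbp3 and Ltbp4 carry latent TGF-β, and none of them passed. Ltbp1 had 105 to 116 CPM with AngII and 105 to 110.1 CPM with AngII+HNG (log2 fold change −0.06, 95% CI −0.151 to 0.0264, adjusted p = 0.441, edgeR). Ltbp3 had 251 to 274 CPM and 245 to 289 CPM (log2 fold change 0.04, 95% CI −0.073 to 0.148, adjusted p = 0.755, edgeR). Ltbp4 had 514 to 579 CPM and 524 to 583 CPM (log2 fold change 0.03, 95% CI −0.0692 to 0.13, adjusted p = 0.782, edgeR).

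**Figure D3:**
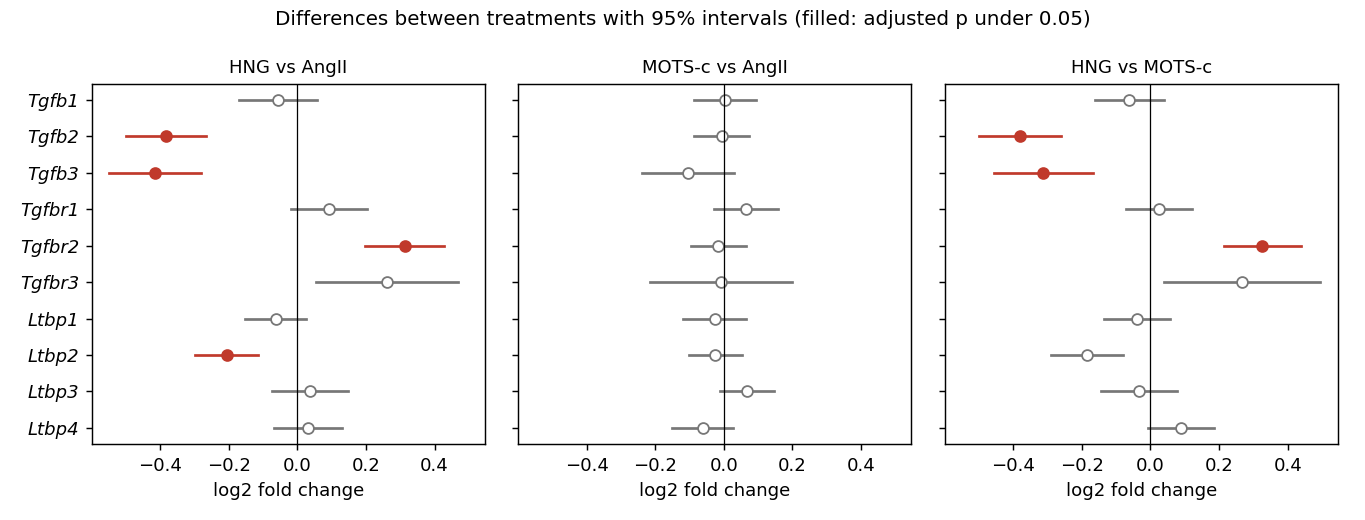
Log2 fold change of each of the 10 genes in the 3 comparisons (edgeR), with 95% confidence intervals; filled points passed an adjusted p of 0.05. With HNG against AngII the filled points are Tgfb2 (−0.38), Tgfb3 (−0.41), Ltbp2 (−0.21) and Tgfbr2 (0.31), and with MOTS-c against AngII no point is filled.

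The sequences before the starts of the 4 called genes are shown because these genes moved with HNG. They are the 250 bases before the gene start in RefSeq (assembly GRCr8), written 5′ to 3′ on the strand of the gene, and capitals mark motif matches. All 4 genes are on the minus strand. Tgfb2 is at chr13:100792686-100792935, Tgfb3 at chr6:111456947-111457196, Tgfbr2 at chr8:124761470-124761719 and Ltbp2 at chr6:110257299-110257548.
Tgfb2: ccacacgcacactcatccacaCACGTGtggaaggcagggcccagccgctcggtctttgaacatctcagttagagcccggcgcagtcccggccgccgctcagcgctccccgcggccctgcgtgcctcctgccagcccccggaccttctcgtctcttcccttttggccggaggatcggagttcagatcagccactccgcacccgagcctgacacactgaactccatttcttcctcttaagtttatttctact
Tgfb3: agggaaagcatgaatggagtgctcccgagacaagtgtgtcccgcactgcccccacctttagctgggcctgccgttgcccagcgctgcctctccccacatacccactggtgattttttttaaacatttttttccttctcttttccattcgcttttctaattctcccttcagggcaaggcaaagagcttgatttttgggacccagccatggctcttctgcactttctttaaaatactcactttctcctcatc
Tgfbr2: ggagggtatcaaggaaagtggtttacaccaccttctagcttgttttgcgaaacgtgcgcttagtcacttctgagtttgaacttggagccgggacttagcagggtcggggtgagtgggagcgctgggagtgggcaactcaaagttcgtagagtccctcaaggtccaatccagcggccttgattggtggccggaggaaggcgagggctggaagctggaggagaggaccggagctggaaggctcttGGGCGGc
Ltbp2: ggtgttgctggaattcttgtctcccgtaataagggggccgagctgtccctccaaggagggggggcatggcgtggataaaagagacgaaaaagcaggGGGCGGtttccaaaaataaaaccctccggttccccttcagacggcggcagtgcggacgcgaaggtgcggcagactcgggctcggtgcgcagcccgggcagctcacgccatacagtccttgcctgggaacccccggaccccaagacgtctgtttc

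On both strands of 300-base windows, from 250 bases before to 50 bases after the start, 7 motifs were searched in all 10 genes and in 33469 RefSeq promoters. No matches overlapped each other. The E-box CACGTG, held by 6.42% of all promoters, was found in Tgfb2 alone among the 10 genes, from −229 to −224 relative to the start. The GC box GGGCGG, held by 33.1% of all promoters, was found in 6 of the 10 genes, among them Tgfbr2 (−7 to −2) and Ltbp2 (−154 to −149). The cAMP response element TGACGTCA, held by 1.83%, was found in Ltbp1 (−108 to −101). The letters of AP-1 (TGANTCA, in 7.33% of all promoters), the TATA box (TATAAA, 14.2%), the SMAD palindrome (GTCTAGAC, 0.197%) and the CArG box (1.64%) were in none of the 10 windows. The window of Tgfb3 held none of the 7 motifs. GC content of the 300-base window was 47.7% in Tgfb3, 59% in Tgfb2, 59% in Tgfbr2 and 63.3% in Ltbp2. A match is a run of letters and not a measured binding site.

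The values of Tgfb3 depended on the gene length that the FPKM table used. The length implied by each library's count and FPKM fell into separate ranges, 2876 to 2932 bases in 7 libraries and 3374 to 3445 bases in 5. The longer length was present in AngII replicates 1, 3 and 4, in AngII+HNG replicate 2 and in AngII+MOTS-c replicate 4. The highest implied length was 1.2 times the lowest, a ratio reached by 6.72% of 11263 genes, and the other 9 genes had ratios of 1 to 1.07. On the FPKM scale Tgfb3 had 192 to 263 with AngII and 170 to 199 with AngII+HNG, so the groups overlapped. With limma on log2(FPKM + 1) the log2 difference of Tgfb3 was −0.28 and did not pass (adjusted p = 0.128). The same limma fit with 1 length per gene gave a log2 difference of −0.39, which passed (adjusted p = 0.0113). The count test does not use length. Which transcripts the libraries held was not measured.

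**Figure D4:**
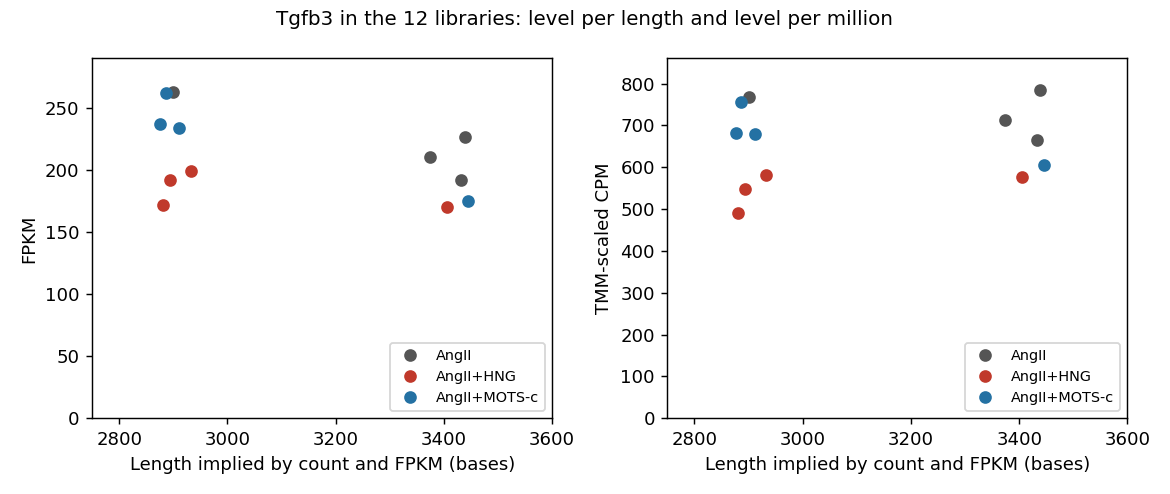
Tgfb3 in each of the 12 libraries, as FPKM (left) and as TMM-scaled CPM (right) against the gene length in bases implied by count and FPKM, with points coloured by treatment. The implied length falls at 2876 to 2932 or at 3374 to 3445 bases, and AngII and AngII+HNG overlap in FPKM but not in CPM.

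The comparison of AngII+MOTS-c with AngII asks the same of MOTS-c at 5 μmol/L. None of the 10 genes passed the test, and all 10 groups overlapped. Over all 14488 genes tested 0.0069% were called (1 gene, higher), and 3.44% had groups that did not overlap. At an unadjusted p below 0.05, 0 of the 10 genes and 5.05% of all genes passed, and DESeq2 called 0 of the 10 as well. Adjusted p-values of the 10 genes were 0.924 to 0.997 (edgeR). Tgfb2 had 249, 249, 250.1 and 229.6 CPM with AngII+MOTS-c, with a log2 fold change of −0.01 (95% CI −0.0874 to 0.074). Tgfb3 had 683, 755, 680.4 and 606 CPM, with a log2 fold change of −0.10 (95% CI −0.239 to 0.0307), the largest in size of the 10. Tgfbr2 had 223, 215, 229 and 233 CPM, with a log2 fold change of −0.02 (95% CI −0.0962 to 0.0637). Ltbp2 had 809, 819, 851 and 762 CPM, with a log2 fold change of −0.02 (95% CI −0.101 to 0.0523). The least precise was Tgfbr3, at 25, 30.8, 27.2 and 34.4 CPM, whose interval ran from −0.214 to 0.199. For Tgfb1 the log2 fold change was 0.00 (95% CI −0.0876 to 0.0942). For Tgfbr1 it was 0.06 (−0.0293 to 0.158), for Ltbp1 −0.03 (−0.118 to 0.0637), for Ltbp3 0.07 (−0.0114 to 0.146) and for Ltbp4 −0.06 (−0.15 to 0.0258).

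HNG and MOTS-c were compared directly, at different doses (10 and 5 μmol/L), in the fit of AngII+HNG against AngII+MOTS-c. This comparison shares the AngII+HNG libraries with the first one. Tgfb2 and Tgfb3 were lower and Tgfbr2 higher with HNG, which is 3 of 10 genes where 4.41% of 14448 genes were called (1.77% lower and 2.64% higher). Their groups did not overlap, nor did those of Ltbp2, against 12.5% of all genes. The log2 difference (HNG minus MOTS-c) was −0.38 for Tgfb2 (SE 0.0552, adjusted p = 0.00246, edgeR) and 0.33 for Tgfbr2 (SE 0.0526, adjusted p = 0.00376). For Tgfb3 it was −0.31 (SE 0.0671, adjusted p = 0.0195, edgeR). This call of Tgfb3 was lost without AngII+HNG replicate 4 (adjusted p = 0.0529), without AngII+MOTS-c replicate 1 (0.0589), 2 (0.0666) or 3 (0.054), with replicates 2 and 3 summed (0.0558), with limma on log2(FPKM + 1) (0.192) and with the same limma fit at 1 length per gene (0.0591), and it held in 12 of 21 alternatives. For Ltbp2 the log2 difference was −0.18 and was not called (95% CI −0.289 to −0.0787, adjusted p = 0.0522, edgeR). It passed without AngII+HNG replicate 3 (0.0235), without AngII+MOTS-c replicate 4 (0.0413), with DESeq2 (0.00484), with all 12 libraries in 1 fit (0.0171) and with robust estimation (0.0379). The difference of Tgfbr3 was 0.27 and not called (95% CI 0.04 to 0.494, adjusted p = 0.183, edgeR). The other 5 genes had differences of −0.06 (Tgfb1) to 0.09 (Ltbp4) with overlapping groups.

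The other genes of the pathway were taken from 7 lists with 88 genes, of which 86 were tested. With HNG against AngII, 6 rose, 12 fell and 68 did not pass, a share to be read against the 5.98% called over all genes. With MOTS-c against AngII 0 of the 86 passed by edgeR and 0 by DESeq2, 2 had an unadjusted p below 0.05 (5.05% over all genes), and 3 had groups that did not overlap (3.44% over all genes). With HNG against MOTS-c 4 were higher and 10 were lower with HNG, where 2.64% and 1.77% of all genes were. The median log2 fold change of the 86 genes with HNG against AngII was −0.042, against 0.0043 over all genes.

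Around the ligands, 24 genes act in the latency, storage and activation of TGF-β, and 3 of them rose and 4 fell with HNG, where 3.4% and 2.58% of all genes did. Lox, the oxidase that cross-links collagen and elastin, fell from 778 ± 16.1 to 609 ± 33 CPM (SD, n = 4; log2 fold change −0.35, SE 0.0419, adjusted p = 0.000511, edgeR). Tgm2, a transglutaminase that cross-links the latent complex into the matrix, fell from 162 ± 4.85 to 134 ± 8.27 CPM (log2 fold change −0.28, adjusted p = 0.00432). Itgb1, the integrin beta-1 subunit, fell from 3841 to 3350 CPM on average (log2 fold change −0.20, adjusted p = 0.00853, edgeR). Mmp2, a gelatinase that can release TGF-β from its latent complex, rose from 953 ± 42.1 to 1175 ± 50.8 CPM (log2 fold change 0.30, adjusted p = 0.00161, edgeR). The genes of this list thus moved both ways, with a median of −0.053. Nrros, Plau and Adamts1 completed the calls in this list and were named after their values were seen. Nrros (log2 fold change 0.64, passing in 11 of 21 alternatives) and Plau (0.44, in 17) were higher and Adamts1 (−0.17, in 12) lower. Calls were lost without AngII replicate 2, 3 or 4 or AngII+HNG replicate 3 or 4 for Nrros, without AngII replicate 1 or 2 or AngII+HNG replicate 4 for Plau, and without AngII replicate 1, 2 or 3 or AngII+HNG replicate 4 for Adamts1. Of the 4 proteoglycans that bind TGF-β, Fmod (fibromodulin) rose from 63.7 ± 2.06 to 78.6 ± 4.08 CPM (log2 fold change 0.31, adjusted p = 0.00227, edgeR) and the other 3 did not pass.

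Downstream of the receptors, 0 of 6 tested receptor partners and co-receptors and 0 of 7 tested SMADs and SMAD partners passed with HNG against AngII by edgeR, where 5.98% of all genes did, and lists of this size can hold no call at that share. None of these genes had an unadjusted p below 0.05 or was called by DESeq2. Of 16 inhibitors and feedback genes and of 10 genes of the branch that does not use SMADs, 1 each was called, where 5.98% of all genes were. Smurf1, a ubiquitin ligase that acts on receptors and SMADs, fell from 111 ± 5.56 to 95 ± 2.37 CPM (log2 fold change −0.23, adjusted p = 0.00845, edgeR). Rock2, a kinase downstream of RhoA, fell from 399.8 to 346 CPM (log2 fold change −0.21, adjusted p = 0.0443, edgeR), with overlapping groups. This call of Rock2 held in 10 of 21 alternatives (adjusted p up to 0.145) and was lost without AngII replicate 1, 3 or 4 and without AngII+HNG replicate 2, 3 or 4. Tab2, a partner of the kinase TAK1, had a log2 fold change of −0.12 against AngII (adjusted p = 0.0881) and was lower with HNG than with MOTS-c (log2 difference −0.18, adjusted p = 0.0182, edgeR), a call that was lost without AngII+HNG replicate 4 or without AngII+MOTS-c replicate 1, 2 or 3 and with the block by library-name number (adjusted p = 0.0745, the highest over all alternatives).

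Of 19 known target genes of TGF-β, 2 rose and 6 fell with HNG, where 3.4% and 2.58% of all genes did, and 11 did not pass. Acta2, the smooth muscle actin of myofibroblasts, fell from 4151 to 3387 CPM (log2 fold change −0.29, SE 0.0367, adjusted p = 0.000727, edgeR). Ccn2, a matricellular growth factor, fell from 2680 to 2164 CPM (log2 fold change −0.31, adjusted p = 0.00454, edgeR). Tagln, an actin-binding protein, fell from 2158 to 1726 CPM (log2 fold change −0.32, adjusted p = 0.00583, edgeR). Tgfbi, a matrix protein named for its induction by TGF-β, rose from 17.7 ± 1.48 to 24.5 ± 1.53 CPM (log2 fold change 0.47, adjusted p = 0.0021, edgeR). Id1, an inhibitor of basic helix-loop-helix factors, rose from 37.1 ± 3 to 48.4 ± 3.82 CPM (log2 fold change 0.39, adjusted p = 0.00583, edgeR). The collagen genes Col1a1 (log2 fold change −0.04, 95% CI −0.138 to 0.0573, adjusted p = 0.687) and Col1a2 (−0.03, 95% CI −0.0889 to 0.0383, adjusted p = 0.701) and fibronectin, Fn1 (0.03, 95% CI −0.0462 to 0.101, adjusted p = 0.723, edgeR), were named after their values were seen. Their intervals leave out a fall of the size of that of Acta2. With MOTS-c against AngII, Acta2 had a log2 fold change of −0.03, Ccn2 −0.03, Tgfbi 0.04 and Lox −0.06, none of them called. Tagln had −0.11 (95% CI −0.194 to −0.0337), with an unadjusted p of 0.00895 and an adjusted p of 0.924 (edgeR).

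**Figure D5:**
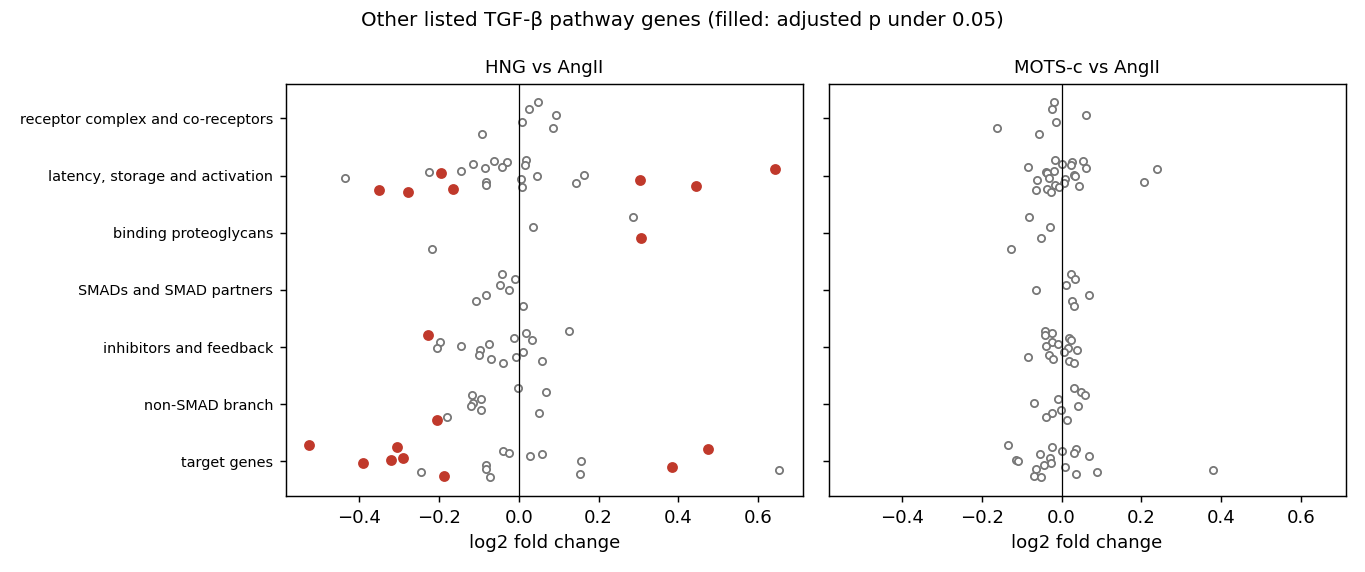
Log2 fold change of HNG (left) and MOTS-c (right) against AngII (edgeR) for the tested genes of the 7 pathway lists, with a row per list and a point per gene; filled points passed an adjusted p of 0.05. With HNG the 6 higher and 12 lower calls lie in 5 lists, and none in the receptor partners or the SMADs, and with MOTS-c no point is filled.

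Across the 12 libraries of all treatments, the log2 CPM of Tgfb2 and Tgfb3 varied together (Pearson r = 0.924), and both varied against Tgfbr2 (r = −0.969 and −0.937). These are descriptions over libraries that include the treatment difference itself. Among 12191 genes, those most like Tgfb2 were Filip1l (r = 0.979), Jag1 (0.974) and Ccn1 (0.974), and those most like Tgfb3 were Mcam (0.984) and Msmo1 (0.978). Those most like Tgfb1, which did not differ between the treatments by the test, were Klhl9 (0.929), Gdpd1 (0.928) and Ccny (0.925).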

How the data were processed

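Libraries of primary rat atrial fibroblasts (3 treatments, n = 4) were grouped by their titles. The authors prepared mRNA libraries, sequenced them paired-end on a DNBSEQ platform and deposited raw read counts (whole numbers) for each gene, and FPKM values of the same genes. The submitters' processing notes name HISAT2, Picard 1.41 and SAMtools 0.1.18. The counter, the strand setting and the build are not given in the sources used here, so promoter coordinates are those of RefSeq (GRCr8), matched by symbol for all 10 genes.

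Counts were tested with edgeR 4.0.16 in R 4.3.3 (filterByExpr with a minimum count of 10, TMM, glmQLFit and glmQLFTest) on the 8 libraries of each comparison, with Benjamini-Hochberg adjustment over all genes tested. An adjusted p below 0.05 counted as a call, whatever the fold change. Standard errors were derived from the F statistic. Gene length was taken as the count divided by FPKM and library total. The code was tested on simulated counts. Alternatives used DESeq2 1.42.0, limma 3.58.1, other filters, scalings and blocks, and each library left out. The limma fit with 1 length per gene was added after seeing the data.

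The 10 genes and all lists were chosen with earlier results of these data known. Of each pathway list, the genes past the threshold in a comparison were named, at most the 4 with the smallest p, and for each ligand the 3 genes with the highest Pearson r among genes with a symbol and at least 1 CPM. Of these, 1 gene is not reported here. The floor of 3 counts covers counting error only. Replicates differed by 4.4 to 19.4 chi-square units per gene, so each library counted as 1 sample. The pairs with AngII+HNG replicate 3 had 14.3 to 19.4 units, and all other pairs at most 9.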

Additional observations from a re-analysis of the deposited data

Results flagged for a closer look

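Among 23 genes in 3 treatments (69 groups of 4 libraries), 2 groups had a library far from the other 3, where chance flags about 1 in 20 groups. Tgfb1 was highest in AngII+MOTS-c replicate 1, with 54.4 CPM against 52.5 to 52.8 CPM in the others. Tgfb2 was lowest in AngII+MOTS-c replicate 4, with 229.6 CPM against 249 to 250.1 CPM. Replicate 4 was also the lowest for Tgfb2 with AngII (232.5 CPM) and with AngII+HNG (171.3 CPM).

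The effect of HNG differed from that of MOTS-c, by the direct test of AngII+HNG against AngII+MOTS-c (edgeR, adjusted p below 0.05), for 3 of the 10 genes, where 4.41% of all genes passed. The log2 differences, HNG minus MOTS-c, were −0.379 for Tgfb2, −0.312 for Tgfb3 and 0.326 for Tgfbr2. The same test passed for 12 named genes of the pathway lists. The difference was negative for Lox (−0.29), Tgm2 (−0.254), Itgb1 (−0.161), Smurf1 (−0.189), Rock2 (−0.222), Tab2 (−0.18), Acta2 (−0.264) and Ccn2 (−0.284). It was positive for Mmp2 (0.363), Fmod (0.353), Tgfbi (0.437) and Id1 (0.374). Of 21 alternatives, the calls of Mmp2, Lox, Fmod and Tgfbi held in all, those of Tgm2 and Id1 in 18, of Acta2 and Ccn2 in 17, of Tab2 in 16, of Smurf1 and Rock2 in 11 and of Itgb1 in 6. The highest adjusted p was 0.0705 for Tgm2 and 0.0745 for Tab2, both with the block by library-name number. It was 0.162 for Id1, 0.153 for Acta2, 0.116 for Ccn2, 0.128 for Smurf1, 0.0947 for Rock2 and 0.201 for Itgb1, all with limma on FPKM without a filter. The call of Tgm2 was also lost without AngII+MOTS-c replicate 1, and those of Itgb1, Smurf1, Rock2 and Tab2 without each of several libraries.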

How the results depend on the processing

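Tgfb2 and Tgfbr2 passed in all 21 alternatives with HNG against AngII (adjusted p up to 0.0139 and 0.0257) and with HNG against MOTS-c, and no called value of the 10 genes changed sign. Of 210 values per comparison, 203 (HNG against AngII), 210 (MOTS-c against AngII) and 194 (HNG against MOTS-c) kept their side of the threshold. Values that were not called changed sign 1, 25 and 1 times in these comparisons, which were Ltbp3 with HNG against AngII, Tgfbr1 with HNG against MOTS-c, and Tgfb1, Tgfb2, Tgfb3, Tgfbr2, Tgfbr3 and Ltbp2 with MOTS-c against AngII. Tgfb3 with HNG against AngII failed in the 3 limma fits on FPKM (adjusted p 0.122 to 0.197). Genes called with HNG against AngII were 869, with 577 after summing replicates 2 and 3, whose library names share a number, 475 with limma on FPKM without a filter, and 431 to 932 leaving out each library. With MOTS-c against AngII there was 1, with 4 by DESeq2, 0 with all 12 libraries in 1 fit, 0 with replicates 2 and 3 summed, and 0 to 3 leaving out each library. With HNG against MOTS-c there were 637, with 1034 by DESeq2, 975 with all 12 libraries in 1 fit, 304 with limma without a filter, and 322 to 625 leaving out each library. Of the 10 genes, leaving out each library gave 3 to 5, 0 and 2 to 4 calls. Of the named pathway genes with HNG against AngII, Itgb1 passed in 17, Smurf1 in 18 and Rock2 in 10 of 21 alternatives, and Acta2, Ccn2 and Tagln failed only with limma on FPKM without a filter (adjusted p 0.0829, 0.0645 and 0.0898). The share of Tgfb2 among the ligands with AngII was 16.2% by CPM per kb, against 17.6% by FPKM. The cause of these changes was not tested.

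Correlations of the deviations of same-numbered replicates were −0.00628 to 0.218 (HNG against AngII), 0.0191 to 0.169 (MOTS-c against AngII) and 0.0213 to 0.252 (HNG against MOTS-c). Since not every one was over 0.1 in any comparison, the numbers were not taken to pair the samples. The count of replicates, out of 4, that correlated best with their own number was 1, 2 and 3 in these comparisons. Replicate 4 did so in every comparison (0.218, 0.169 and 0.252) and replicate 1 in none. With the replicate block, 1111 genes and 5 of the 10 were called with HNG against AngII, 2 and 0 with MOTS-c against AngII, and 1054 and 5 with HNG against MOTS-c. Under this block Tgfbr3 passed (adjusted p = 0.00912 and 0.0497, edgeR, against AngII and MOTS-c), as did Ltbp2 with HNG against MOTS-c (0.00811). A block by library-name number gave 1113, 1 and 485 genes and 5, 0 and 3 of the 10, with Tgfbr3 passing against AngII (0.019) and not against MOTS-c. The lowest value of the 10 genes in any library was 25 CPM, and the effect of depth was not tested.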
